A study of Caenorhabditis elegans with 2 samples.

Results

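The 657 regions described here are autosomal stretches of Caenorhabditis elegans chromatin with high ChIP-seq signal for the nuclear hormone receptor NHR-28 that lie between genes and away from protein-coding gene starts. They were chosen by measured values. All 30000 candidate regions of the list made from both replicates were ranked by signal, and the 2407 autosomal regions among ranks 1 to 3000 were sorted by position. Of these, 657 (27.3%) had a summit outside every protein-coding gene and more than 1 kb from every protein-coding gene start, 686 were intergenic within 1 kb of a start and 1064 lay inside a gene. Distal sequence by the same definition made up 22.9% of autosomal positions examined every 200 bp. The comparison set was the 5644 distal autosomal regions of ranks below 3000, called lower-ranked regions below. Together with the 657 members these were all the distal regions among the 24526 autosomal regions of the whole list. All members were 330 bp wide, and 650 remained after overlapping members were counted once.

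The animals were L1 larvae, the first larval stage, of strain OP317, of mixed sex per the labels. Their genotype was unc-119(ed3) III; wgIs317, that is a mutation of unc-119, a gene widely used as a marker for transgenesis, together with an integrated transgene that supplies NHR-28 tagged with enhanced green fluorescent protein. There were 2 biological replicates in 1 group, with no second condition, and both replicates came from the same transgenic strain. Chromatin came from whole larvae, so signals from different cell types are mixed, and no cell-type marker can be read from these lists. Nuclear hormone receptors are transcription factors that bind DNA through a pair of zinc fingers, and the worm genome holds an unusually large family of them. Genes in this animal are mostly compact, with regulatory sequence close to the start, but long gaps between genes also carry enhancers and many noncoding RNA genes. The start of many worm transcripts is replaced by a spliced leader, so an annotated gene start can lie away from the true start of transcription.

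The sequences below, read from the ce11 reference genome (WBcel235, RefSeq) on the plus strand, come from the 200 bp windows around the summits of high-signal members. The first 6 carry the hexamer GAGAGA or its reverse complement, the hexamer with the largest excess in members over lower-ranked regions, with every copy in capitals, and these stretches were placed to show the hexamer. The summit falls anywhere within the first 5 of them and outside the gldi-3 stretch. The last 5 are centred on the summits of high-signal members without it, including a summit in a spliced leader RNA gene, summits upstream of the receptor genes nhr-84 and nhr-61, and the highest member on chromosome IV. Each is named by the gene with the nearest start.
F43C1.7, III:4237912-4237991: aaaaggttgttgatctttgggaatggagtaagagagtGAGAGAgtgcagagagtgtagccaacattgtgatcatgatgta
T16A9.3, V:14200199-14200278: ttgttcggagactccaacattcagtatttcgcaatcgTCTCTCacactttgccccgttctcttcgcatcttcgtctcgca
mtm-3, III:3801448-3801527: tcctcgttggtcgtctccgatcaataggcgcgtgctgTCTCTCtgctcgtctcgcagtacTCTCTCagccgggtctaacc
F07H5.13, II:8787512-8787591: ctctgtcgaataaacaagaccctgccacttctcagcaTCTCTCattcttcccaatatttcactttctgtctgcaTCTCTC
Y17G7B.17, II:12102513-12102592: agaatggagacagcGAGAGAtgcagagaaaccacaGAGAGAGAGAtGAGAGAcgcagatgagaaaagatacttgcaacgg
gldi-3, II:9282904-9282983: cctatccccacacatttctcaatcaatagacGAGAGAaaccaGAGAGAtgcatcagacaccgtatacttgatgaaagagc
pot-3, III:13779072-13779151: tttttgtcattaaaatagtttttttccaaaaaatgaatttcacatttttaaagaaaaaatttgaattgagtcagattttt
ins-13 and sls-2.2, II:5543657-5543736: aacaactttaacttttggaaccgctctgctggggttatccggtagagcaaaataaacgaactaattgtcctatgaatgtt
nhr-84, V:15880863-15880942: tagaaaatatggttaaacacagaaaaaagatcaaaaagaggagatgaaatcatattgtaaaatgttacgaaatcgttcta
nhr-61, II:14822613-14822692: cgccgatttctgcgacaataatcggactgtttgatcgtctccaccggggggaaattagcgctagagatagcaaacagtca
Y116A8A.2, IV:16810565-16810644: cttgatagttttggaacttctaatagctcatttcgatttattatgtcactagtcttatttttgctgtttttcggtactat

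The signal is the value the authors assigned to each region, and it ranks regions within a list. In the pooled list it ran from 12.5 to 1361.8 over 30000 regions, in that of replicate 1 from 8.37 to 917.6 and in that of replicate 2 from 6.39 to 800.1. Because no read counts were used, the depth behind each value is unknown. Member signals ran from 26.1 to 99.4 with a median of 29.8, against 12.5 to 26.1 and a median of 16.6 in the lower-ranked regions, a difference that the ranking itself fixes. The limit cut through a continuous series of values. The member at rank 3000, upstream of the T-box gene tbx-40, and the first distal region outside, at rank 3005 near F26F12.3, both had signal 26.1. The member nearest to a gene start, at grsp-2, lay 1005 bp away, and the closest region that was left out, at acs-6, lay 997 bp away.

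The highest members stood beside genes of diverse function. The leading region, on III from 4237783 to 4238112, lay between nhr-20 and F43C1.7, which both run on the minus strand. Its summit was 4627 bp from the nearest start, that of F43C1.7, and 4729 bp upstream of the start of nhr-20. It is therefore counted at F43C1.7 and not among the receptor genes below, although the 2 distances were close. Its signal was 99.4 in the pooled list, 46.0 in replicate 1 and 58.1 in replicate 2, at ranks 48 and 24 of the replicate lists. The next lay on I from 4701088 to 4701417, 2678 bp upstream of chd-7, a chromatin remodeller gene, with its summit inside the long noncoding RNA gene linc-91. Its signal was 97.9, with 54.7 in replicate 1 and 39.8 in replicate 2. Both regions ranked within the 50 highest of each replicate.

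The member at pot-3, a gene of the single-stranded telomere-binding protein family, had signal 82.3 on III from 13778947 to 13779276, with 42.1 in replicate 1 and 49.4 in replicate 2. It lay 204 bp past the end of mdt-29, a Mediator subunit gene, and 4689 bp from the end of the chromosome, and its 200 bp window had a GC content of 18%. The bZIP gene atfs-1, which directs the mitochondrial unfolded protein response, ended 2507 bp before a member on V (14200042 to 14200371, signal 74.6, ranks 54 and 92), which lay 5307 bp upstream of T16A9.3. On III, 1055 bp upstream of the myotubularin phosphatase gene mtm-3, the member at 3801357 to 3801686 had signal 72.7 and ranks 76 and 61. These 3 members were in the 100 highest regions of both replicates.

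Further down, a member between the convergent genes Y70G10A.4 and paml-1 had signal 63.4 and ranks 113 and 25. Another lay 2993 bp upstream of F07H5.13 with signal 61.6 and ranks 75 and 305. At Y48G10A.3 on I the signal was 61.6 and the ranks were 92 and 82. The member upstream of lgc-26, a ligand-gated ion channel gene (V, 265020 to 265349), had signal 58.7 and ranks 68 and 71. At Y17G7B.17 (II, 12102348 to 12102677) the signal was 57.7 and the ranks were 295 and 84. The member 2444 bp upstream of sbp-1, the worm SREBP gene that controls lipid synthesis, had signal 54.9 and ranks 135 and 62. Its other flank is plr-1, whose start lay 11867 bp away. At F54F12.1 the replicates placed the member far apart, at ranks 2029 and 50, with signal 51.2. Of the 15 highest members, 12 lay upstream of the gene with the nearest start and 3, at F43C1.7, ins-13 and Y70G10A.4, lay downstream of it.

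High rank in both replicates was mostly found at the top of the set. Of the 657 members, 20 overlapped the 159 peaks that the authors kept after thresholding with the irreproducible discovery rate, which scores how reproducible a region's rank is across replicates. Of the 2407 autosomal regions of the same ranks, 107 did so, and over all autosomal regions of the pooled list, 118 of 24526 (0.481%) did. Membership and thresholding both follow signal, so these counts are given as description. Of the 657 members, 83 (12.6%, exact 95% interval 10.2 to 15.4) overlapped the 3000 highest regions of both replicates, against 362 of the 2407 autosomal regions of the same ranks (15%). Replicate 1's 3000 highest regions overlapped 303 members (46.1%) and those of replicate 2 overlapped 262 (39.9%). For the 2407 autosomal regions these shares were 49.1% and 39.3%. In 175 members (26.6%) neither did, and these reached the first 3000 in the pooled list alone. The share was about the same, 26.7%, over the 2407 autosomal regions.

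The share found in both replicates was 19 of 20 (95%) for members among the thresholded peaks and 37 of 64 (57.8%) for ranks 160 to 500. It was 13.8% for ranks 501 to 1000, 3.28% for ranks 1001 to 2000 and 1.41% for ranks 2001 to 3000. The thresholded members had median ranks of 102 in replicate 1 and 78 in replicate 2, while the medians over all ranked members were 3121 and 3738. In the list of replicate 1, 35 members (5.33%) had no overlapping region at all, and in that of replicate 2, 69 (10.5%) had none. Over all autosomal regions of ranks 1 to 3000 these shares were similar, at 4.57% and 11.6%. The 3 members with the largest gap lay near M03F8.6 (ranks 24629 and 98), klc-2, a kinesin light chain gene (57 and 12265), and fipr-13 (28068 and 133). In the klc-2 member the signal was 44.0 in replicate 1 and 9.70 in replicate 2. The pooled list was made from both replicates, so these ranks are not independent of the choice of members. The thresholded peaks were also kept by how well their ranks agreed across the same replicates. Their high share in both is therefore expected from that selection.

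**Figure D1:**
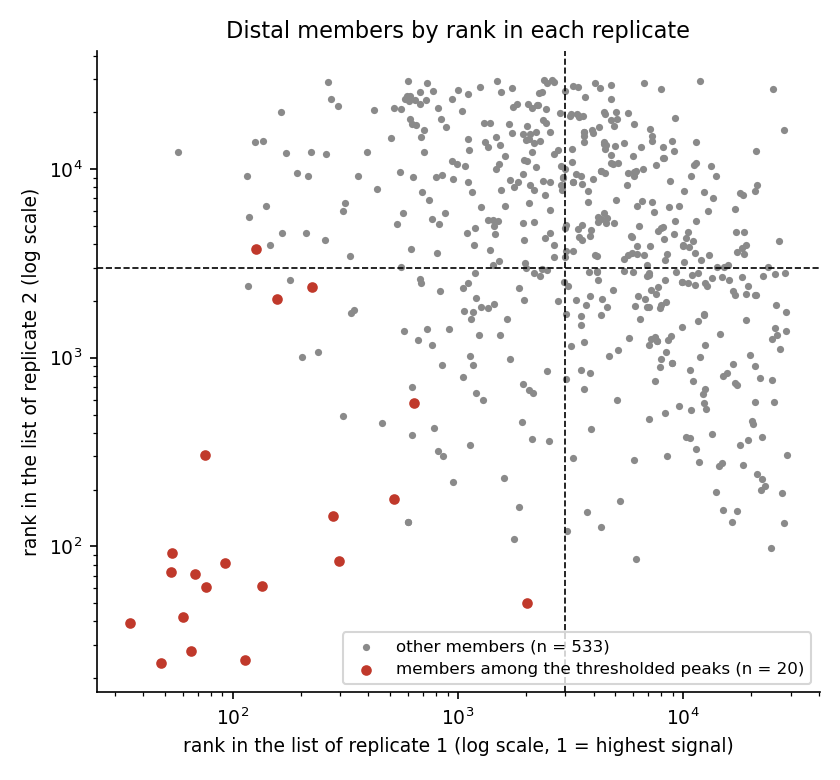
Rank of each member in the list of replicate 1 (x axis) and replicate 2 (y axis), both on log scales, for the 553 members with a rank in both lists. The 20 members among the thresholded peaks (red) sit mostly at the lower left, and the dashed lines mark rank 3000.

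Members held GAGAGA more often than lower-ranked distal regions. The hexamer or its reverse complement was found in the 200 bp around the summit of 110 members (16.7%, exact 95% interval 14 to 19.8) and of 525 lower-ranked regions (9.30%, 8.56 to 10.1). The difference was 7.44 percentage points with a Newcombe 95% interval of 4.67 to 10.6. Windows of the same length on all distal positions held it in 10.5% of cases. The hexamer was chosen with earlier results of these data known, so the share describes these lists. By excess in members it led all 2080 hexamers, each counted together with its reverse complement. Several others near the top overlap it by most of their letters, such as AGAGAG (14.3% against 7.88%) and AGAGAC (11.3% against 5.72%). At the other end stood AT-rich hexamers such as AAATTG (42.8% against 51.0%).

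The share was highest in the highest ranks and stayed above the lower-ranked bins down to the limit. GAGAGA was present in 10 of the 20 members among the thresholded peaks, 32.8% of ranks 160 to 500, 15.5% of ranks 501 to 1000, 13.5% of ranks 1001 to 2000 and 13.1% of ranks 2001 to 3000. Below the limit the share stayed between 8.56% and 9.73% in 4 bins down to rank 30000. The related hexamer GAGACG, which shares its first letters and was searched after seeing the data, was in 59 members (8.98%) and 220 lower-ranked regions (3.90%). Their difference was 5.08 points (3.06 to 7.56), and distal positions had 5.08%. Its share was 35% in the thresholded members and 20.3% in ranks 160 to 500. It was 6.03% in ranks 501 to 1000, 8.20% in ranks 1001 to 2000 and 5.63% in ranks 2001 to 3000. In the 4 lower-ranked bins it was between 3.01% and 4.37%. Either hexamer was in 12 of the 20 thresholded members, among them those at chd-7, T16A9.3 and mtm-3, which had both. Members with GAGAGA were in both replicates' 3000 highest in 30 of 110 cases (27.3%), those without it in 53 of 547 (9.69%). These counts were not matched for rank. Like the GAGAGA share, the share in both replicates fell with rank, from 19 of 20 thresholded members to 1.41% of ranks 2001 to 3000. Whether GAGAGA goes with presence in both replicates at equal rank was not tested.

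**Figure D2:**
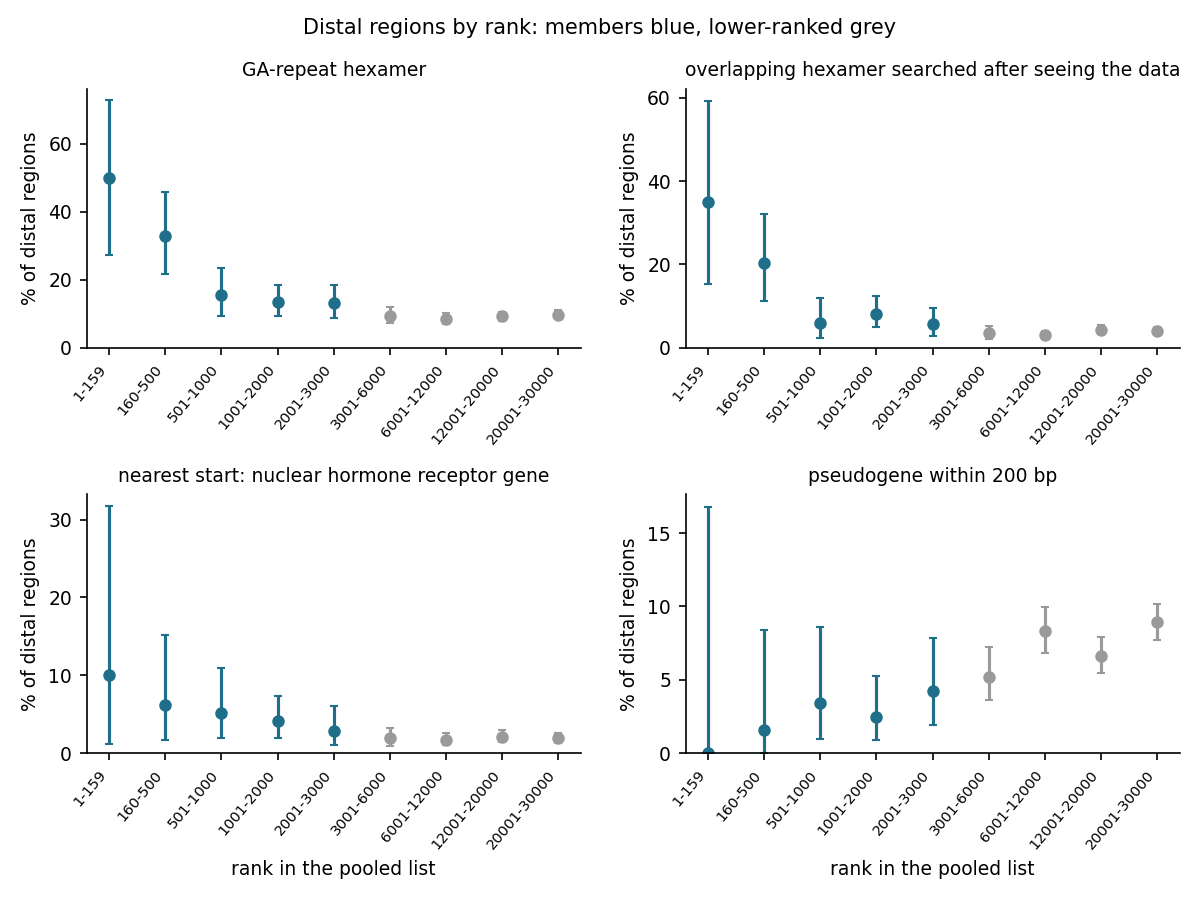
Share of distal regions (y axis, percent) with GAGAGA (top left), GAGACG (top right), a receptor gene nearest (bottom left) or a pseudogene within 200 bp (bottom right), by rank in the pooled list (x axis), with exact 95% intervals, for members (blue) and lower-ranked regions (grey). The GA-repeat hexamer panel falls from 10 of 20 regions in the highest bin to 13.1% at ranks 2001 to 3000, and the pseudogene share is higher in the lower-ranked bins, at 5.21% to 8.91%.

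Base composition changed along the same ranks. The median GC content of the 200 bp windows was 29% in members (95% interval 28 to 29.5), 29% in lower-ranked regions and 34.0% at distal positions. In the 20 thresholded members the median was 41% (33.5 to 46.5), in ranks 160 to 500 it was 31.5%, and in the 3 bins down to rank 3000 it was 28% to 28.5%. The median share of bases that the reference marks as repeats was 5.25% in the thresholded members, 28.5% in ranks 160 to 500 and between 45.5% and 47.5% in all lower bins. Single thresholded members varied widely, from 0% at mtm-3 to 100% at Y70G10A.4. Members with GAGAGA had a median GC of 39.8% and those without it 28%. Within windows of at least 35% GC, 71 of 144 members (49.3%) and 241 of 1119 lower-ranked regions (21.5%) held GAGAGA. Between 30% and 35% GC the shares were 14.1% and 9.47%, between 25% and 30% they were 6.04% and 5.44%, and under 25% they were 3.54% and 2.99%. Uninterrupted alternating GA runs of 10 bp or more were found in 22 members (3.35%) and 49 lower-ranked regions (0.868%), with longest runs of 36 and 148 bp.

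Of the other 9 motifs in the list, searched on both strands of the same windows, 2 differed between members and lower-ranked regions with an interval that excluded 0. GTCAT was in 27.5% of members and 21.7% of lower-ranked regions (difference 5.88 points, 2.42 to 9.57), and distal positions had 24.6%. CACGTG, the E-box core bound by many basic helix-loop-helix factors, was in 20 members (3.04%) and 1.79% of lower-ranked regions (1.25 points, 0.124 to 2.90), near the 2.83% of distal positions. Without IV the CACGTG shares were 2.99% and 2.11%, and the interval of their difference (-0.489 to 3.09) included 0. AGGTCA, the core hexamer that many nuclear receptors recognise, was in 21 members (3.20%), in 4.25% of lower-ranked regions and in 5.28% of distal positions, with a difference of -1.06 points (-2.29 to 0.658). A match is only a run of letters in a window and shows no binding. These intervals were not adjusted for the number of motifs.

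Nuclear hormone receptor genes, the family to which nhr-28 belongs, were the nearest gene of 28 members (4.26%, exact 95% interval 2.85 to 6.10) and of 109 lower-ranked regions (1.93%). The difference was 2.33 percentage points (Newcombe 95% interval 0.975 to 4.19), and 1.96% of distal positions had such a gene nearest. The 28 members stood at 20 genes in 19 intergenic gaps, out of 247 autosomal genes in the list, and the 109 lower-ranked regions at 59 genes in 62 gaps. Of the 28, 24 lay upstream, as did 73.2% of all members. By rank, 2 of the 20 thresholded members had such a gene nearest, and the share was 6.25%, 5.17%, 4.10% and 2.82% in the next 4 bins, and between 1.74% and 2.12% in the lower-ranked bins. Replicate 2's list alone gave 2.87% against 2.11% in its lower regions, a difference of 0.763 points whose interval (-0.346 to 2.37) includes 0. Replicate 1's list alone gave 4.06% against 1.87%. With 1 region per gap, a setting added after seeing the data, the shares were 3.47% and 1.84% (0.227 to 3.62 points).

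The highest of these lay 1295 bp upstream of nhr-84 on V, from 15880738 to 15881067, with signal 76.0 in the pooled list, 45.0 in replicate 1 and 29.9 in replicate 2. The replicate ranks, 53 and 73, were close. The member 4110 bp upstream of nhr-61 (II, 14822488 to 14822817) had signal 55.8, with 26.8 and 25.7 in the replicates and ranks 278 and 144. It lies in the long divergent gap between nhr-61 and the cadherin gene cdh-7, whose start was 20576 bp away. Upstream of nhr-10, a receptor gene needed for the propionate breakdown pathway, a member on III (7116480 to 7116809) had signal 47.8 and ranks 1767 and 109. The next were at nhr-62, which acts in diet-restriction longevity (I, signal 45.6, ranks 1056 and 795), and at nhr-31, which acts in growth of the excretory cell tube (IV, signal 41.9, ranks 1244 and 1328). Of the 28 members, 7 were in the 3000 highest of both replicates and 12 were on IV. Over all members these shares were 12.6% and 39.0%. Several receptor genes had more than 1 member, with 4 upstream of nhr-46 at signals from 28.8 to 32.2 and 3 upstream of nhr-88 at signals from 28.4 to 34.8. Neither nhr-28 nor another gene on the X chromosome can appear among these autosomal members.

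Among the other 11 gene lists, no difference in share between members and lower-ranked regions had an interval that excluded 0, and none of the 12 intervals was adjusted for the number of lists. Factors of the bHLH, bZIP, forkhead, GATA and SOX families were nearest to 12 members (1.83% against 1.22%). Beside sbp-1, these included fos-1, an AP-1 subunit gene, with signal 46.4 and ranks 2061 and 677, and hif-1, the hypoxia-inducible factor gene, with signal 43.0 and ranks 308 and 492. Homeobox genes were nearest to 5 members (0.761% against 0.691%), with the POU gene ceh-6 at signal 44.0 and ranks 3748 and 152, ceh-48 at signal 35.2 and ceh-58 at signal 32.3. Neuropeptide and insulin genes were nearest to 11 (1.67% against 1.54%). The highest were ins-13, at the spliced leader RNA gene described further on, and nlp-40, an intestinal neuropeptide gene of the defecation cycle, at signal 48.9 with ranks 224 and 2371. The nlp-40 member lay 17037 bp from the end of its chromosome.

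Ion channel and transmitter receptor genes were nearest to 15 members (2.28% against 2.09%), led by lgc-26, then the neuropeptide receptor gene npr-2 (signal 36.6, rank 222 in replicate 1 and no region in replicate 2) and the BK potassium channel gene slo-1 (signal 36.3, ranks 1185 and 2818). Chemoreceptor genes, the largest list, were nearest to 29 members (4.41%), 5.47% of lower-ranked regions and 7.16% of distal positions. Their highest members, at srh-192, str-160 and srx-50, had signals from 34.8 to 35.3. C-type lectins had 8 members, with clec-224 highest at 35.4. Chaperones had 4 (0.609% against 0.213%, difference 0.396 points, -0.00805 to 1.35), among them dnj-10, hsp-16.1 and dnj-27 at signals of 30.8, 30.1 and 28.5. The glucuronosyltransferase gene ugt-47 (signal 38.7, ranks 1265 and 1850), gst-16 and gst-33 were the 3 members of the detoxification list. Collagens had col-13 and col-137, hedgehog-related genes had the Patched gene ptc-1 and ptr-20, and ribosomal protein genes had rpl-31 alone.

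**Figure D3:**
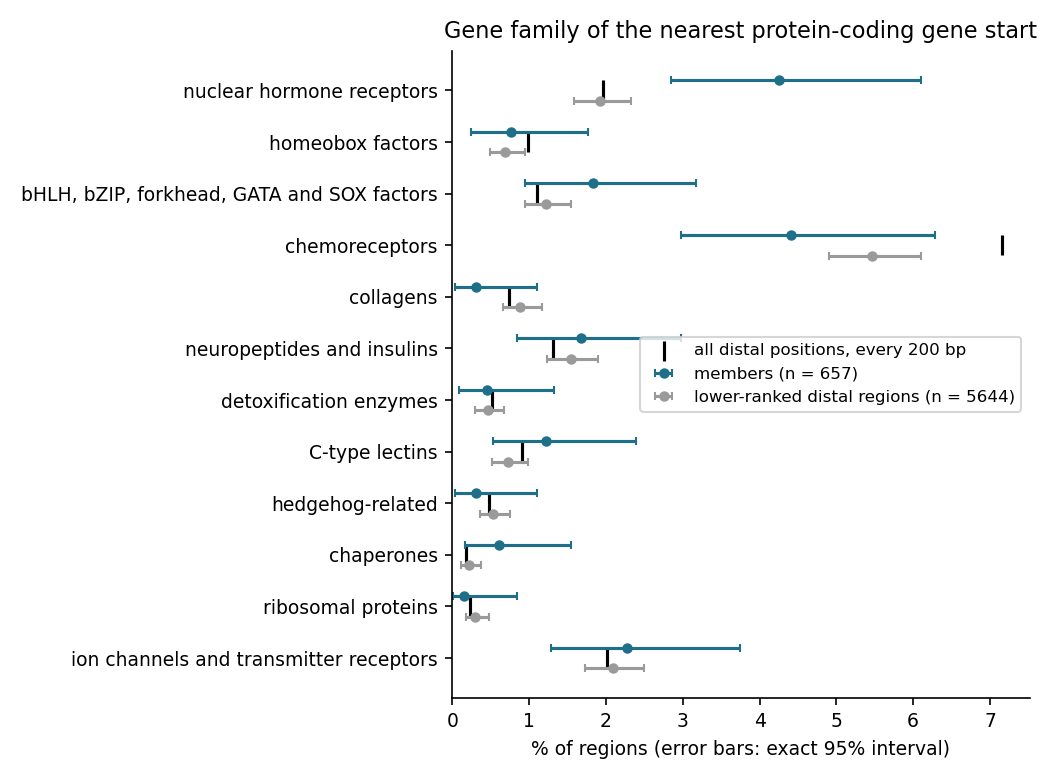
Share of regions (x axis, percent) whose nearest protein-coding gene start belongs to each of 12 gene families, with exact 95% intervals, for members (blue), lower-ranked regions (grey) and all distal positions (black ticks). Nuclear hormone receptor genes stand at 4.26% against 1.93%, and the chemoreceptor share is 4.41% against 7.16% of positions.

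A small noncoding RNA gene (tRNA, snRNA, snoRNA, rRNA or miRNA) lay within 200 bp of the summit in 9 members (1.37%, exact 95% interval 0.628 to 2.58) and 40 lower-ranked regions (0.709%). The difference of 0.661 points had an interval of -0.0347 to 1.89. The highest of them was at sls-2.2, which encodes a spliced leader RNA, the short RNA donated to the start of worm messages by trans-splicing. A member on II, from 5543532 to 5543861, had its summit inside sls-2.2 and inside the noncoding RNA gene C17C3.23, 815 bp beyond the end of ins-13. Its signal was 80.5, with 43.5 in replicate 1 and 39.3 in replicate 2, at ranks 60 and 42. The other 8 had lower signal. They comprised 4 members near snoRNA genes, led by C54G4.16 (signal 46.1, ranks 622 and 389, 34 bp away), 2 near tRNA genes with signals of 32.6 and 28.5, and 2 near miRNA genes. The miRNA genes were mir-79, 106 bp from the summit of the member at rank 1443, and mir-52, 101 bp from the summit of the member at rank 2492. No member lay near an rRNA gene, with an exact 95% interval of up to 0.560%. No lower-ranked region did either, and only 0.0887% of distal positions did.

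Other noncoding genes and pseudogenes lay within 200 bp of 178 members (27.1%) and of 28% of lower-ranked regions. Most of these were genes of piRNAs, the small germline RNAs that silence transposons, which occur in dense clusters on IV. A piRNA gene was near 126 members (19.2%), 17% of lower-ranked regions and 7.96% of distal positions. Of the 126, 125 were on IV. Within IV the shares were 48.8% of members, 49.3% of lower-ranked regions and 29.7% of distal positions, so members and lower-ranked regions differed by -0.488 points (-6.95 to 6.01) there. The highest was at 21ur-2738 near Y116A8A.2, with signal 46.7, 23.4 in replicate 1 and 16.6 in replicate 2. It was the highest member on IV. The core TGTTTCA of the motif upstream of most piRNA genes, searched after seeing the data, was in 26.6% of members on IV and 27.9% of lower-ranked regions there.

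Pseudogenes were less frequent near members. They lay within 200 bp of 20 members (3.04%, 1.87 to 4.66), 7.67% of lower-ranked regions and 14.7% of distal positions, a difference of -4.63 points (-5.92 to -2.88) between members and lower-ranked regions. Without IV the shares were 4.49% and 9.03%. None of the 20 thresholded members had a pseudogene nearby, but the exact interval of this share reached up to 16.8%. That range holds both 7.67% and 14.7%, so the count cannot separate thresholded members from lower-ranked regions or distal positions. The highest 3 members with a pseudogene nearby, at F46B3.9, srh-192 and str-160, all on V, had signals of 37.4, 35.3 and 35.2. Genes annotated as ncRNA were near 25 members (3.81% against 3.07%), with T23F11.10 upstream of the protein phosphatase gene ppm-2 (signal 50.6, ranks 158 and 2056) next after C17C3.23. Long intergenic RNA genes were near 10 members (1.52% against 1.24%). After linc-91, the highest were linc-128 upstream of the calmodulin gene cmd-1 (signal 45.3, ranks 180 and 2576) and linc-110 upstream of the kinesin gene klp-3 (signal 34.6). The 1 antisense RNA gene was anr-28, 45 bp from a summit of signal 30.6.

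**Figure D4:**
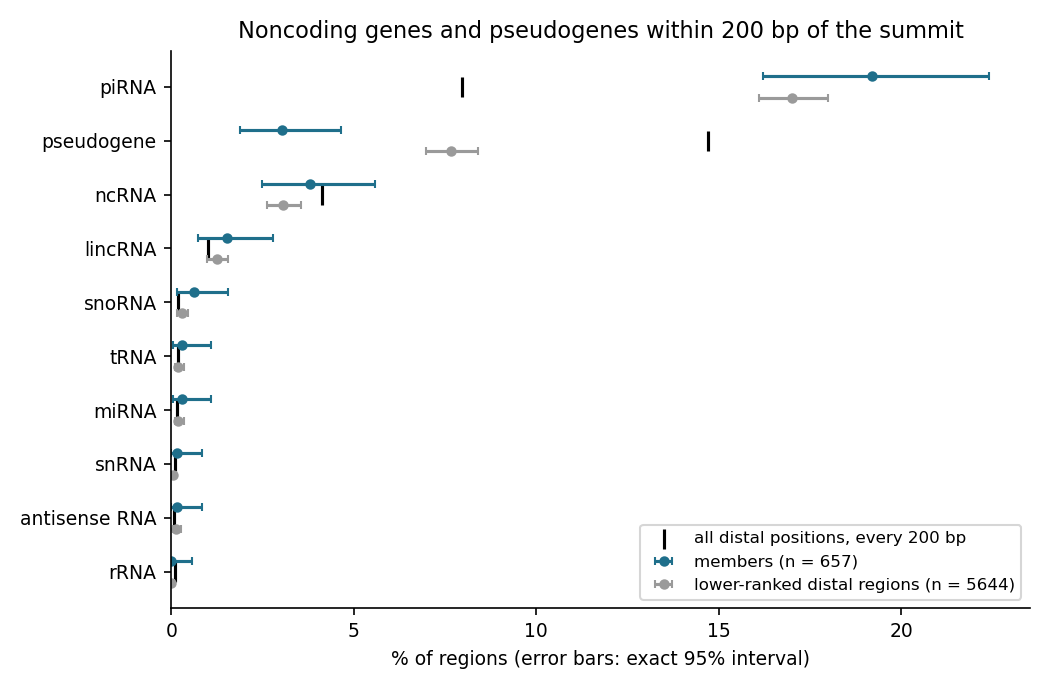
Share of regions (x axis, percent) with an annotated noncoding gene or pseudogene within 200 bp of the summit, by class, with exact 95% intervals, for members (blue), lower-ranked regions (grey) and all distal positions (black ticks). The piRNA class stands at 19.2% of members and 7.96% of positions, and pseudogenes at 3.04% and 14.7%.

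The members' summits lay a median of 2649 bp from the nearest gene start (range 1005 to 29997), against 2736 bp in the lower-ranked regions. Of them, 223 were within 2 kb and 146 beyond 5 kb, of which 30 were beyond 10 kb. The summit was upstream of that gene in 481 members (73.2%), in 70.0% of lower-ranked regions and in 66.9% of distal positions. The difference of 3.26 points between members and lower-ranked regions had an interval of -0.446 to 6.72. Flanking genes were tandem around 343 members (52.2% against 53.1%), divergent around 224 (34.1% against 32.5%) and convergent around 90 (13.7% against 14.3%), and all these intervals of the difference included 0. A gene end lay within 1 kb of 142 members (21.6% against 23.0%). The arms, the outer 30% of a chromosome at either end, held 407 members (61.9%) and 66.4% of lower-ranked regions, a difference of -4.41 points (-8.37 to -0.566). With an outer 25% the difference was -3.39 points and its interval (-7.42 to 0.601) included 0.

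Chromosome IV held 256 members, more than any other autosome, but none of the highest. It had 39.0% of members, 33.7% of lower-ranked regions and 25.9% of distal positions, and its highest member signal was 46.7. None of the 256 members on IV was among the thresholded peaks, while 20 of the 401 members on the other autosomes were. All 20 thresholded members were within ranks 1 to 159 of the pooled list, and the highest member on IV was at rank 180. The count of 0 on IV therefore restates the ranking by signal. The other autosomes had 81 members on I, 97 on II, 98 on III and 125 on V, with highest signals of 97.9, 80.5, 99.4 and 76.0. The share in the 3000 highest of both replicates was 9.77% on IV, 11.1% on I, 11.3% on II, 14.4% on V and 20.4% on III. GAGAGA was in 13.7% of members and 7.63% of lower-ranked regions on IV, and in 18.7% and 10.1% on the rest.

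The members fell in 519 intergenic gaps, of which 426 held 1 member, 68 held 2 and 25 held 3 or more. The 3 gaps with the most members were all on IV. The 24.6 kb gap between Y73F4A.1 and nhr-11 held 8 members and 4 lower-ranked regions. Of the 8 members, 6 stood between 6112 and 10803 bp from Y73F4A.1, with signals from 28.1 to 45.4. The highest, at 9055990 to 9056319, had ranks 136 and 14114 in the replicates, and 1 of the 8 was in the 3000 highest of both replicates. None of the 8 held GAGAGA or had a piRNA gene nearby. The 65.0 kb gap between Y105C5B.1418 and the bHLH gene hlh-32 held 7 members, all near piRNA genes, and 32 lower-ranked regions. The 35.6 kb gap between irld-18 and the DM-domain gene dmd-6 held 7 members and 22 lower-ranked regions, with member signals from 26.6 to 34.6, and 2 of these members overlap.

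**Figure D5:**
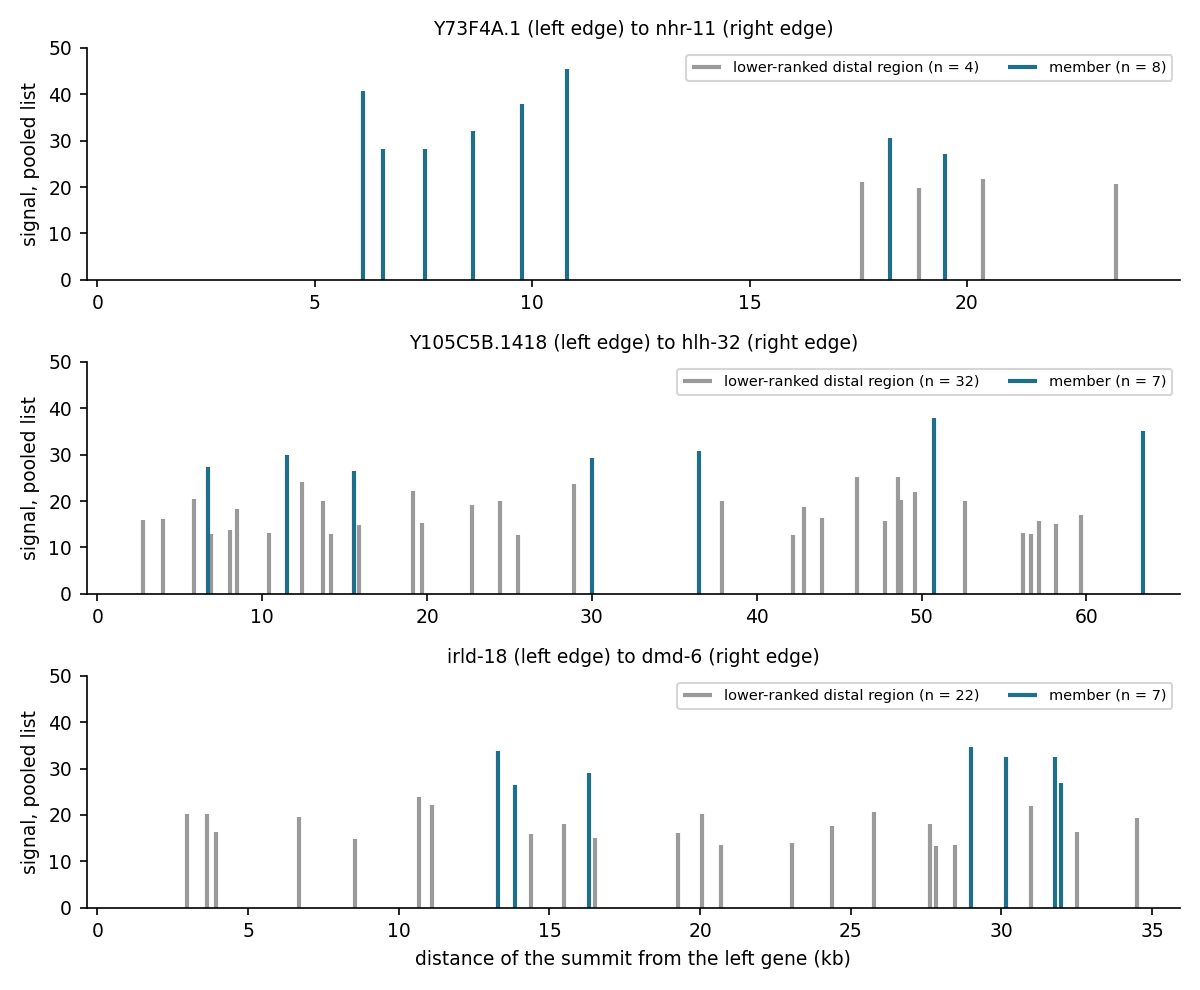
Signal in the pooled list (y axis) of each distal region against the distance of its summit from the left-hand gene (x axis, kb) in the 3 intergenic gaps with the most members, for members (blue) and lower-ranked regions (grey). In the gap beside nhr-11, 6 of the 8 members stand between 6112 and 10803 bp from Y73F4A.1.

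The unc-119 locus, the marker named in the genotype, had no member close by. The rule leaves out summits inside genes or within 1 kb of a gene start, so none could fall in unc-119 or at its start. The nearest member lay 84.7 kb from its start, and the nearest distal candidate region, at rank 12664 with signal 18.1, lay 52.4 kb away.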

How the data were processed

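ChIP-seq of tagged NHR-28 in L1 larvae gave 2 biological replicates in 1 group. The deposited file listing records that the authors called 30000 candidate regions, both peaks and background, in each replicate and in the 2 replicates combined, each against a control. They filtered these by the irreproducible discovery rate. The signal value per region and the summit offset are the authors' deposited values, and the signal ranks regions within 1 list only. Which aligner, peak caller and filter threshold they used is not given in the sources used here. No counts were used, so depth is unknown, and the control was not analysed here.

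The ce11 lists were used. Genes came from Ensembl release 115 (19985 protein-coding genes, WBcel235), and bases from the RefSeq genome of the same assembly. Lists were compared by any overlap of at least 1 bp. A noncoding gene counted when it lay within 200 bp of a summit. Motifs, GC content and repeat-masked bases were read in 200 bp windows centred on it. Shares have exact (Clopper-Pearson) 95% intervals, differences of shares Newcombe intervals and medians order-statistic intervals. These cover counting error over regions only, since regions are not replicates of the experiment and some overlap, and no test was run. The routines were tested on simulated sequences. Tools were Python 3.11.15, numpy 2.4.6, pandas 2.3.3, scipy 1.17.1 and matplotlib 3.10.9.

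The members and gene and motif lists were chosen with earlier results of these data known. Named genes are those flanking the 15 highest members, the 3 highest per noncoding class and gene list, the 3 fullest gaps, the 3 largest replicate rank gaps and unc-119. The genes nhr-62, nhr-31, nhr-46, nhr-88 and gldi-3 were named after their values were seen. Alternatives were other rank limits, distances, windows and overlaps, each replicate's list alone, overlapping regions counted once, and, added after seeing the data, the autosomes without IV and 1 region per gap.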

Additional observations from a re-analysis of the deposited data

How the results depend on the processing

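Of 97 values recomputed under an alternative, 80 kept their size within the interval of the reported value or, for counts, within 1.5 times, and 17 moved. The number of members was 323 with ranks 1 to 1500, 1290 with ranks 1 to 6000, 434 at 2 kb from gene starts and 401 without chromosome IV. The share with GAGAGA was 20.4% for ranks 1 to 1500, 13.2% for ranks 1 to 6000, 10.8% in 100 bp windows and 25.6% in 400 bp windows, above the lower-ranked share each time (9.52%, 9.28%, 4.80% and 17.9%). Replicate 2's list alone gave 17.1% with GAGAGA and replicate 1's alone gave 16.7%, against 9.89% and 9.59% in their lower regions. The share in both replicates' highest regions was 24.5% for ranks 1 to 1500 and 6.67% for ranks 1 to 6000. Other noncoding genes or pseudogenes were near 32.0% at 2 kb from gene starts, 10.2% without chromosome IV and 23.7% with 1 region per gap. A gene end lay within 1 kb of 26.1% at 500 bp from gene starts, 16.4% at 2 kb and 25.6% with 1 region per gap, where the lower-ranked share was 37.4%. The share on the arms was 54.3% with an outer 25% in place of 30%. The cause was not tested, beyond the regions each setting adds or removes. The interval of the difference between members and lower-ranked regions changed its side of 0 in some cases. For the arms it included 0 with ranks 1 to 1500, at 500 bp, with 1 region per gap and with the outer 25%. For receptor genes it included 0 in replicate 2's list alone. For small noncoding RNA genes it excluded 0 with ranks 1 to 1500 (0.105 to 3.28 points), with ranks 1 to 6000 and at 500 bp. For other noncoding genes it excluded 0 without chromosome IV (-6.75 to -0.383). For convergent genes it excluded 0 with 1 region per gap (-7.17 to -0.437), and so it did for gene ends (-15.8 to -7.40). Every interval for GAGAGA lay above 0. No paired analysis was possible because there was 1 group with 2 replicates and no test between groups. Unknown depth limits how far ranks of low-signal members can be told apart in either replicate.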

Other observations

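A few values stood outside the comparisons. Within 50 kb of a chromosome end there were 2 members on I, 3 on III, 2 on IV and 1 on V. The pot-3 and nlp-40 members described above are among them. Lower-ranked regions and distal positions near the ends were not counted, so these counts are description only. Of the 657 members, 134 (20.4%) held GAGAGA or GAGACG and 35 held both, against 658 (11.7%) and 87 of the lower-ranked regions. Of the 5644 lower-ranked distal regions, 14 (0.248%) overlapped the 3000 highest regions of both replicates, and 539 (9.55%) overlapped no region of either replicate's list, which no member did.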
